A study of Mus musculus with 87 samples.

Results

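The transcripts described here are the long intergenic noncoding RNAs (lincRNAs) that were expressed in the mouse liver before or after surgery. They were taken as the rows typed lincRNA in the deposited table of log2 RPKM (reads per kilobase of exon, scaled to library size) whose mean log2 RPKM was above -0.5, a level of 0.707 RPKM, in at least 1 group of 3 or more livers. The X28 group was not counted for this purpose, and H19 and D17H6S56E-5 were to be left out. The rule kept 153 of 2057 lincRNA rows and of 37991 rows in all. Neither exclusion removed a row, because H19 did not reach the level (highest group mean -2.53 on the log2 scale) and D17H6S56E-5 was typed protein coding. The members were selected on their measured levels in these livers, the group means of log2 RPKM, so their levels are given as a description. Counts of members over a comparison are likewise set beside the share of all genes and support nothing on their own. The members just inside the limit were Gm17115, Gm15706 and Atp10d, with highest group means of -0.49, -0.48 and -0.48. The lincRNA rows just outside it were Gm9917, Gm16006 and Gm16755, at -0.57, -0.60 and -0.61.

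LincRNAs are transcripts of RNA polymerase II that are usually spliced and polyadenylated and hold no long open reading frame. Some act as RNAs, in the nucleus or in ribonucleoprotein complexes, and many have no known role. Others serve as carriers: small nucleolar RNAs (snoRNAs), which guide the modification of ribosomal RNA, are cut from the introns of host transcripts, and several microRNAs (miRNAs) are cut from longer noncoding precursors. A further set starts close to a protein-coding gene or runs across it on the opposite strand, and in such a place the levels of the neighbours often move together.

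The livers came from C57BL/6 male mice that were fed only in the dark phase of a 12 h light and 12 h dark cycle. The mice were 12 to 14 weeks old at the time of surgery, so those of the groups named by weeks were older when sampled. Partial hepatectomy (PH), which removes most of the liver and starts its regrowth, or a sham operation was done at Zeitgeber time 2 (ZT2), that is 2 h after lights on. Groups are named C for unoperated, S for sham and X for PH livers, with the hours or weeks (W) after surgery. The groups used were C0 (9 livers, ZT2), C4 (3, ZT6) and C4W (2), S1 and X1 (6 each, ZT3), S4 (5) and X4 (3; both ZT6), S10 (3) and X10 (6; both ZT12), S20 (3) and X20 (6; both ZT22), X28 (3, ZT6), X36 (6, ZT14), X44 (3, ZT22), S48 (3) and X48 (5; both ZT2), X72 (3), X1W (3) and X4W (2). All mice were of the same wild-type strain, whole liver pieces were sequenced after poly(A) selection, and each library was 1 liver. In bulk tissue, fewer cells of a type and less RNA per cell cannot be told apart.

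Depth estimated from the value of a single read ranged from 12.2 to 48.8 M reads per library with a median of 26.7 M. X28 replicate 2 stood apart, since only 37.0% of its low values came out as whole reads against at least 72.5% in the other libraries, and X28 entered no test. Hepatocyte markers were high throughout, while over all groups pancreas acinar markers summed to at most 0.340 RPKM (S10) and skeletal muscle markers to at most 0.355 RPKM (X1). Within C0, neutrophil markers summed to a median of 1.04 and a highest value of 48.7 RPKM. Kupffer cell and macrophage markers summed to a median of 21.7 and a highest value of 133 RPKM in C0. The 9 C0 livers were not alike. By replicate number, 85 members were above the limit in C0 1 to 3, 101 in C0 4 to 6 and 109 in C0 7 to 9, against 117 in C4. The livers were collected in several experimental periods, each of which held C0 livers. All C4 livers came from 1 period and the X4 and S4 livers from the other periods, so operation and period cannot be told apart at 4 h against C4. S10 and S20 came from 1 period, X10 and X20 from that one and another, and X48, S48, X72 and X1W from a single period. The labels do not tie replicate numbers to periods, and comparisons with C0 are therefore also given by triplicate where that changes them.

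Some members were expressed throughout and others in few groups. Of the 153 members, 50 were above the limit in all 16 counted groups and 20 in a single group. C4 held the highest group mean for 56 members, followed by X10 and S10 with 16 each and by X4 and X72 with 12 each. Summed over members, the level was 450 ± 38.1 RPKM in C0 (SD, n = 9), 559 ± 17.1 in C4 (n = 3), 412 ± 60.9 in S4 (n = 5), 593 ± 23.6 in X4 (n = 3) and 1102 ± 240 in X10 (n = 6). Without the 2 members of highest level the sums were 387 ± 45.7, 513 ± 17.1, 242 ± 36.6, 258 ± 6.88 and 358 ± 39.1 RPKM, so the order of the groups changed when Gm12840 and Gm20419 were left out. Exon length ranged from 269 to 9357 nt with a median of 1722 nt.

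**Figure D1:**
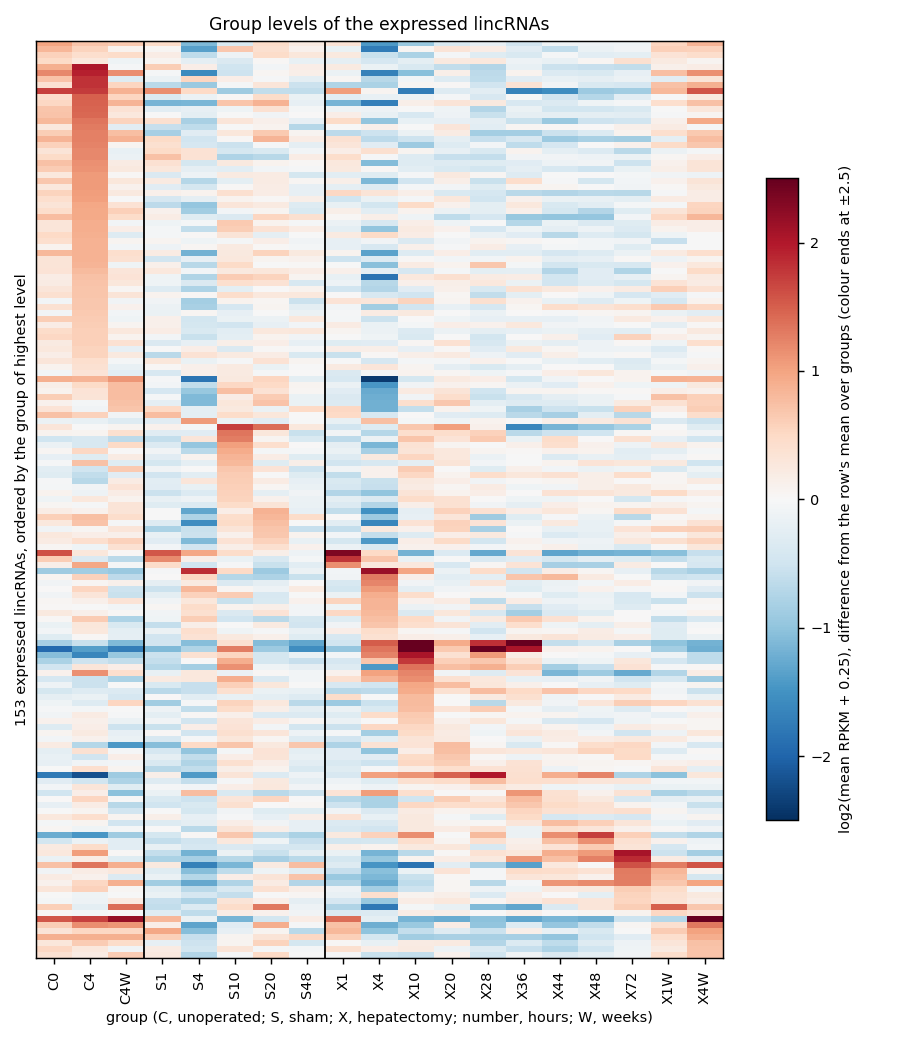
Levels of the 153 expressed lincRNAs (rows, ordered by the group in which each was highest) in the 19 groups (columns), as log2(mean RPKM + 0.25) minus the row's mean over groups, with colours ending at 2.5 in either direction. The block of rows highest in C4 is pale or blue in S4 and X4, and a few rows reach their deepest red in X10.

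Gm12840 (chr4:117372793-117373528, mm9, + strand) and Gm20419 (chr17:35617084-35617673, + strand) were the most abundant members, with means over groups of 146 and 39.2 RPKM. Of the 32-base stretches in their exons, 98.9% and 97.9% also occur elsewhere in the genome, with a median of 53 and 24 copies. Reads that mapped to n places were counted as 1/n by the authors, so which copy gave these reads is uncertain. Gm17517, Gm15298 and Gm16211 were over 90% repeated as well, and 9330159M07Rik and 9430037G07Rik shared 79.2% and 72.2% of their stretches with other places. In contrast, 130 members had under 10% of such stretches.

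In unoperated livers Gm12840 was at 30.9, 52.9 and 102 RPKM (lowest, median and highest of 9 C0 livers) and at 38.6, 37.3 and 42.3 RPKM in C4. At 10 h it reached 407, 487 and 683 RPKM (lowest, median and highest) in X10 and 161, 173 and 197 RPKM in S10. Every X10 liver was above every S10 liver, and both groups were above C0 and C4. Gm20419 gave 42.0, 34.7 and 59.0 RPKM in S10 and 114, 176 and 471 RPKM in X10, and in X28, with the library of lower quality as the second value, it was at 85.7, 197 and 218 RPKM.

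At 4 h after either operation most lincRNAs were lower than in the unoperated livers of the same clock time, which came from another experimental period. In X4 against C4, 90 members fell and 19 rose by limma on log2(RPKM + 0.25), where a call needs a log2 difference beyond 0.5 and a Benjamini-Hochberg adjusted p below 0.05, while 33.9% of the 15396 genes tested fell and 11.7% rose. The median difference was -0.80 for the members and -0.26 for all genes tested. In S4 against C4, 94 members fell and 10 rose, beside 31% and 12.2% of all genes, and the medians were -0.83 and -0.22. The 2 comparisons share the C4 livers. Members that met the level limit in groups other than those compared gave 81 falls and 18 rises among 141 in X4 and 84 falls and 10 rises among 143 in S4. When C0 livers took the place of C4, a choice made after the data were seen, 63 to 86 members fell and 19 to 36 rose in X4, and 68 to 82 fell and 12 to 26 rose in S4, over all 9 C0 livers or any of their triplicates. Of all genes, 25.2% to 29.6% then fell and 9.05% to 15.3% rose in X4, and 22.6% to 26.6% fell and 10.2% to 16.4% rose in S4. C0 livers were taken at another clock time than X4 and S4.

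**Figure D2:**
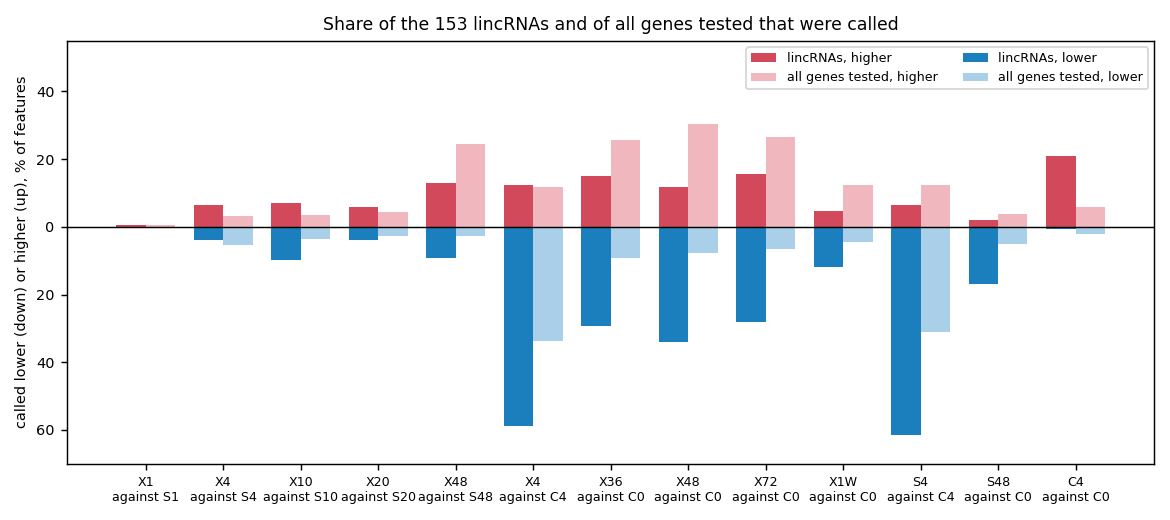
Percent of the 153 lincRNAs (dark bars) and of all 15396 genes tested (pale bars) that were called higher (upwards) or lower (downwards) in each comparison, by limma (log2 difference beyond 0.5, adjusted p below 0.05). The downward dark bars are longest for X4 against C4 (90 members) and S4 against C4 (94 members), where they exceed the pale bars beside them.

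The largest falls at 4 h were in transcripts that were abundant at rest. The constant added to RPKM before taking logs limits how far a low transcript can fall on this scale. Whether abundant transcripts fell more than low ones therefore cannot be read from these differences. 1700080G11Rik was at 8.40, 3.91 and 5.35 RPKM in C4 and at 0.0758, 0.566 and 0.0760 RPKM in X4, a log2 difference of -3.73 ± 0.44 (SE; adjusted p = 7.99e-11). In the S4 livers it was between 0.115 and 0.589 RPKM, -3.56 ± 0.39 from C4 (adjusted p = 1.22e-11). No operated liver at 4 h reached the lowest C4 liver. 1810034E14Rik, which lies within Cdc14b on the opposite strand, went from 4.20, 3.53 and 3.50 RPKM in C4 to 0.207, 0.141 and 0.170 RPKM in X4 (-3.24 ± 0.26, adjusted p = 3.86e-16) and was at 0.256 to 0.429 RPKM in S4. 1810019D21Rik, which overlaps Esrp2, the gene of an epithelial splicing regulator, was at 24.5, 31.2 and 21.0 RPKM in C4, at 2.21, 3.41 and 2.22 RPKM in X4 and at 1.37 to 5.42 RPKM in S4, with log2 differences of -3.18 ± 0.36 and -2.74 ± 0.32. The groups did not overlap for either transcript. Gm15998, within the ephrin gene Efna3, fell in S4 by 3.04 ± 0.40 on the log2 scale, from 3.49, 5.21 and 4.20 RPKM to between 0.182 and 0.520 RPKM.

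0610005C13Rik, the most abundant member after Gm12840 and Gm20419, overlaps Bcat2, which encodes the mitochondrial branched-chain aminotransferase. It was at 40.6, 40.3 and 38.6 RPKM in C4, at 7.40, 12.7, 17.1, 16.3 and 16.9 RPKM in S4 and at 5.40, 8.82 and 5.17 RPKM in X4. The fall was -1.54 in S4 (adjusted p = 1.93e-13) and -2.62 in X4 (adjusted p = 2.01e-20), and X4 was also below S4 by 1.07 on the log2 scale (adjusted p = 2.80e-07), although the highest X4 liver lay above the lowest S4 liver.

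A small set rose at 4 h. 1200007C13Rik, on chromosome 2 and 98.4 kb from Ptpn1, was between 0 and 0.0611 RPKM in C0 and at 0.0174, 0.0549 and 0.0203 RPKM in C4. It reached 1.98, 2.74, 1.95, 0.808 and 0.478 RPKM in S4 and 1.88, 1.87 and 2.32 RPKM in X4. Both operations thus gave levels far above every unoperated liver, with log2 differences from C4 of 2.53 ± 0.25 (adjusted p = 6.17e-13) and 3.01 ± 0.28 (adjusted p = 6.16e-14). At 10 h it was at 0.436 to 0.546 RPKM in S10 and at 0.307, 0.744 and 1.10 RPKM (lowest, median and highest) in X10, and at 20 h it was at 0 to 0.0394 RPKM in S20. Gm12840 also rose, by 1.91 ± 0.26 in S4 and 2.86 ± 0.29 in X4, with the uncertainty about its copies given above. 9430037G07Rik, another partly repeated row, rose by 1.44 ± 0.36 in S4.

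Neutrophil markers (S100a8, S100a9, Ngp and Retnlg) summed to 1.02 to 4.66 RPKM in C4, 6.85 to 41.3 RPKM in S4 and 4.36 to 9.25 RPKM in X4, and B cell markers to 2.46 to 4.39, 0.0909 to 0.719 and 0.155 to 0.302 RPKM. Their part in the 4 h differences was not tested.

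The direct comparison of PH with sham surgery asks what the loss of tissue adds to the operation. At 1 h a single member passed: Gm2061, which overlaps the start of the metal transporter gene Slc30a10, was at 0.259, 0.477 and 0.595 RPKM (lowest, median and highest) in S1 and at 0.730, 0.80 and 0.933 RPKM in X1. The log2 difference was 0.61 ± 0.15 (adjusted p = 0.0170), beside 0.624% of all genes higher and 0.026% lower, and the livers of the groups did not overlap. The call was lost when replicate 1, 2, 3 or 6 was left out (adjusted p from 0.0519 to 0.137).

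At 4 h, 10 members were higher and 6 lower in X4 than in S4, beside 3.16% and 5.48% of all genes. Gm15611, 1.08 kb from the peroxisomal carnitine acyltransferase gene Crot and on its strand, was at 2.46, 2.60, 3.30, 1.76 and 2.71 RPKM in S4 and at 18.7, 9.55 and 16.4 RPKM in X4 (log2 difference 2.39 ± 0.58, adjusted p = 0.00220). It had been at 0.230, 1.38 and 4.62 RPKM (lowest, median and highest) in C0, so the X4 livers were above all unoperated livers while the S4 livers were not. Sham group means were above the highest C0 liver at other hours. They were 8.08 RPKM in S1, beside 5.44 RPKM in X1 (-0.27 ± 0.46, adjusted p = 0.957), and 5.62 RPKM in S20, beside 20.5 RPKM in X20. Later PH groups stayed in the upper range, with 20.7, 39.2 and 29.4 RPKM in X28, whereas X72 gave 2.89, 7.21 and 2.23 RPKM. Gm15441 lies on the opposite strand across Txnip, whose protein inhibits thioredoxin and responds to glucose. It was at 0.0167 to 0.131 RPKM in S4 and at 0.670, 0.757 and 3.32 RPKM in X4 (2.28 ± 0.56, adjusted p = 0.00270). Without replicate 6, the highest X4 liver, the difference was 1.65 with an adjusted p of 0.0501. Gm20419 was higher by 2.19 ± 0.42 (adjusted p = 0.000125).

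The members that were lower in X4 than in S4 included 1810014B01Rik, which overlaps Hsp90b1, the gene of the endoplasmic reticulum chaperone GRP94. It was at 0.951, 0.824, 1.11, 0.979 and 1.29 RPKM in S4 and at 0.437, 0.488 and 0.449 RPKM in X4, and the C4 livers were at 0.282, 0.446 and 0.448 RPKM, so here S4 was higher than C4 (1.00 ± 0.22, adjusted p = 7.51e-05) while X4 and C4 differed by 0.15 ± 0.24 (adjusted p = 0.625). B230354K17Rik, which starts 145 bases from Cdc5l and runs away from it, was at 0.658 to 0.759 RPKM in S4 and at 0.465, 0.331 and 0.325 RPKM in X4. The log2 differences were -0.85 ± 0.22 (adjusted p = 0.00398) and -0.65 ± 0.13 (adjusted p = 0.000323). With a pseudocount of 1 they were -0.47 and -0.33, short of the limit of 0.5.

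At 10 h, 11 members were higher and 15 lower in X10 than in S10, beside 3.4% and 3.62% of all genes. Gm15441 had the largest rise. It was at 0.419, 0.839 and 0.557 RPKM in S10 and at 1.25, 3.80 and 27.9 RPKM (lowest, median and highest) in X10, a log2 difference of 2.56 ± 0.55 (adjusted p = 0.000787). Every X10 liver was above every S10 liver, although the X10 livers spread widely among themselves. Txnip itself averaged 33.1 RPKM in S10 and 56.8 RPKM in X10. Of the repeated rows, Gm20419 was higher by 2.25 ± 0.41 and Gm12840 by 1.48 ± 0.25.

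Gm2788, which overlaps the cell cycle repressor gene E2f8 on the opposite strand, was at 37.3, 41.4 and 41.9 RPKM in S10, its highest group, and at 13.1, 19.1 and 24.6 RPKM (lowest, median and highest) in X10. The log2 difference was -1.09 ± 0.30 (adjusted p = 0.0116, and 0.0992 without replicate 3), and the livers did not overlap. 1600020E01Rik, which starts 100 bases from Pcbp1 in the other direction, was at 2.03, 2.35 and 1.92 RPKM in S10 and at 0.685, 0.847 and 1.71 RPKM in X10 (-0.97 ± 0.22, adjusted p = 0.00148). Gm15889, 6.82 kb from the stress gene Herpud1, was at 1.02, 1.55 and 0.902 RPKM in S10 and at 0.0836, 0.107 and 0.486 RPKM in X10. Its difference of -1.69 ± 0.57 (adjusted p = 0.0383) lost the call in 8 alternatives, among them the fits without replicate 1, 2, 3 or 5 (adjusted p from 0.0611 to 0.160).

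At 20 h, 9 members were higher and 6 lower in X20 than in S20, beside 4.49% and 2.61% of all genes, and after scaling all libraries to one median the counts were 3 and 8, beside 2.90% and 3.81%. 4732419C18Rik was at 1.53, 1.67 and 1.91 RPKM in S20 and at 0.435, 0.552 and 0.863 RPKM (lowest, median and highest) in X20 (-1.18 ± 0.21, adjusted p = 7.19e-05). 2310001H17Rik was at 1.28, 1.65 and 1.5 RPKM in S20 and at 0.368, 0.533 and 0.695 RPKM in X20 (-1.15 ± 0.18, adjusted p = 1.67e-05). Gm16731, across Coro2a, was at 3.63, 2.25 and 3.68 RPKM and at 0.713, 0.936 and 1.30 RPKM (-1.49 ± 0.44, adjusted p = 0.0157), a call that was lost without replicate 1 or 3. None of these transcripts had overlapping groups. The rises of Gm20419 (1.47 ± 0.41), Gm12840 (0.78 ± 0.25) and Gm13056 (0.98 ± 0.31) at 20 h each lost the call when replicate 1 was left out, with adjusted p of 0.117, 0.174 and 0.334. Over all alternatives the call was lost in 2 for Gm20419, 7 for Gm12840 and 5 for Gm13056. Among these were scaling to one median for Gm12840 and a pseudocount of 1 for Gm13056.

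At 48 h, when proliferation markers (Mki67, Top2a, Ccnb1 and Cdk1) summed to 59.4 to 114 RPKM in X48 against 0.324 to 2.41 RPKM in C0, 20 members were higher and 14 lower in X48 than in S48. Of all genes, 24.5% were higher and 2.69% lower. The median difference was 0.04 for the members and 0.27 for all genes, and after scaling the libraries to one median, which moved the member median by 0.38, 5 members were higher and 43 lower, beside 7.11% and 11.2% of all genes. A530020G20Rik overlaps the start of Slc44a3 on the opposite strand. It was at 0.188, 0.0743 and 0.156 RPKM in S48 and at 1.06, 0.817, 1.18, 1.66 and 1.35 RPKM in X48 (1.89 ± 0.26, adjusted p = 1.03e-08). In X4 and S4 it had been at most 0.0302 RPKM, and in C0 it ranged from 0.159 to 0.869 RPKM, so the X48 livers overlapped the resting range while the S48 livers were at its lower end or below. Gm13056 was at 0.154, 0 and 0.147 RPKM in S48 and at 0.931, 1.00, 1.06, 1.46 and 1.04 RPKM in X48 (1.97 ± 0.32, adjusted p = 1.02e-06), above every C0 liver.

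Among the members that were lower in X48 than in S48, 4732419C18Rik was at 1.51, 1.04 and 2.05 RPKM in S48 and at 0.660, 0.327, 0.480, 0.416 and 0.313 RPKM in X48 (-1.36 ± 0.21, adjusted p = 3.56e-07). Gm2788 was at 15.6, 14.5 and 13.1 RPKM in S48 and at 11, 3.24, 6.75, 3.38 and 5.29 RPKM in X48 (-1.38 ± 0.31, adjusted p = 0.000256). Gm12718 was at 0.367, 0.516 and 0.639 RPKM in S48 and at no more than 0.0726 RPKM in X48 (-1.39 ± 0.34, adjusted p = 0.000565). The groups did not overlap for any of them.

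**Figure D3:**
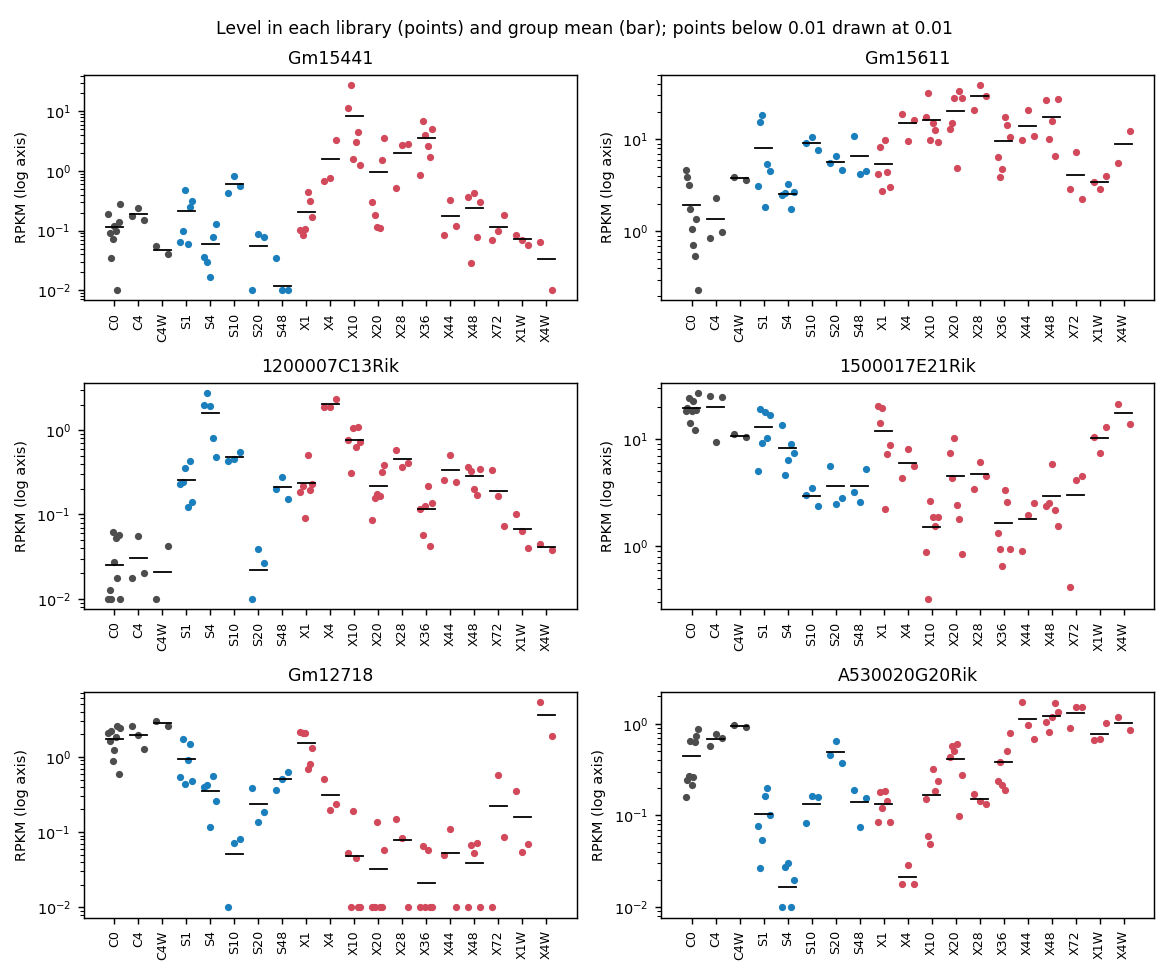
RPKM on a log axis of 6 lincRNAs in every library (points; grey unoperated, blue sham, red PH) and the group mean (bar), with values below 0.01 drawn at 0.01. Gm15441 reached 27.9 RPKM in one X10 liver, 1200007C13Rik was high in both S4 and X4, and 1500017E21Rik and Gm12718 stayed below every C0 liver from X10 to X72 and were back in the C0 range in X4W, apart from 1 Gm12718 library above it.

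The effect of PH over sham at 48 h was compared with that at 10 h by a contrast of the differences. It called 17 members higher and 10 lower, beside 21.7% and 1.38% of all genes, and 4 and 21 after scaling to one median, beside 5.80% and 7.31%. A530020G20Rik differed by 1.81 ± 0.36 (adjusted p = 7.86e-05): its X10 livers were at 0.0484, 0.167 and 0.319 RPKM (lowest, median and highest) and its S10 livers at 0.0826, 0.163 and 0.158 RPKM, that is, without a gap at 10 h. Gm4673, within Lsr on the opposite strand, differed by -2.17 ± 0.43 (adjusted p = 7.36e-05). Its X10 livers were at 1.00, 1.35 and 1.76 RPKM against 0.426, 0.343 and 0.303 RPKM in S10, and its X48 livers at 0.0705 to 0.170 RPKM against 0.420, 0.488 and 0.271 RPKM in S48. The sign of the gap was thus opposite at the 2 times. 4732419C18Rik differed by -1.58 ± 0.30 and Gm13021 by 1.82 ± 0.56, the latter with an adjusted p of 0.239 without replicate 2.

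Later PH groups were compared with resting liver, and these comparisons share the C0 livers. X36 against C0 gave 23 members higher and 45 lower, beside 25.7% and 9.29% of all genes, at another clock time (ZT14 against ZT2). X48 against C0 gave 18 higher and 52 lower beside 30.4% and 7.66%, X72 gave 24 and 43 beside 26.6% and 6.59%, and X1W gave 7 and 18 beside 12.4% and 4.48%. The member medians were -0.14, -0.17, -0.17 and -0.10 in this order, and the medians of all genes tested were 0.16, 0.24, 0.21 and 0.12. Scaling to one median moved the splits further down, to 11 and 69, 8 and 84, 12 and 67, and 3 and 32. All genes then also fell more often than they rose, with 12.7% higher and 20.6% lower in X36, 10.7% and 20.7% in X48, 11.4% and 16.6% in X72 and 5.61% and 9.98% in X1W. With C0 1 to 3 alone the splits were nearer to even, at 30 and 28 in X36, 29 and 36 in X48 and 28 and 27 in X72, and in X1W they turned to 16 higher and 8 lower. The shares of all genes against C0 1 to 3 were 24.3% higher and 8.66% lower, 27.8% and 6.81%, 24% and 5.62%, and 8.95% and 4.27%.

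1500017E21Rik (Hectd2os in RefSeq; chr19:36688542-36780131, mm9, - strand) runs across the ubiquitin ligase gene Hectd2 on the opposite strand. It was at 12.1, 18.4 and 26.6 RPKM (lowest, median and highest) in C0 and fell to 0.647, 1.13 and 3.34 RPKM in X36 (-3.53 ± 0.40, adjusted p = 8.76e-12). X48 livers were at 2.39, 2.55, 5.87, 2.19 and 1.55 RPKM and X72 livers at 0.418, 4.12 and 4.48 RPKM. It was also low in S48, at 3.17, 2.57 and 5.20 RPKM (-2.35 ± 0.50, adjusted p = 0.000610), so a low level was shared by both operations at 48 h. At 1 week it was at 10.4, 7.35 and 12.9 RPKM and at 4 weeks at 21.1 and 13.7 RPKM, beside 11.1 and 10.3 RPKM in the unoperated C4W livers. Hectd2 was at a group mean of 0.181 RPKM in C0 and 0.437 RPKM in X36.

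Gm12718 was at a lower level and was also low after PH. C0 livers were at 0.590, 1.82 and 2.56 RPKM (lowest, median and highest), and in X20 and X36 the median was 0, with no liver above 0.134 RPKM. The log2 differences from C0 were -2.77 ± 0.24 in X36, -2.68 ± 0.26 in X48, -2.16 ± 0.31 in X72 and -2.24 ± 0.31 in X1W. Sham livers were low as well, at 0, 0.0707 and 0.0821 RPKM in S10, where X10 livers were at 0 to 0.189 RPKM, and at 0.384, 0.136 and 0.183 RPKM in S20 (X20 against S20 -0.77 ± 0.33, adjusted p = 0.110). At 4 weeks the X4W livers were at 5.40 and 1.90 RPKM and the C4W livers at 2.99 and 2.59 RPKM.

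Of the members that rose against rest, Gm15441 was at 0, 0.0968 and 0.278 RPKM in C0 and at 0.865, 3.36 and 6.86 RPKM in X36 (lowest, median and highest; 3.17 ± 0.41, adjusted p = 5.59e-10), and by X72 it was back at 0.0701, 0.0972 and 0.180 RPKM. Txnip averaged 12.6 RPKM in C0 and 4.37 RPKM in X36, the lowest of its group means, so at 36 h the antisense transcript was high while Txnip was low. Gm15611 rose in X48 by 3.18 ± 0.44 (adjusted p = 5.22e-09), to 26.7, 10.0, 15.7, 6.54 and 27.8 RPKM. In X72, Gm13056 was at 1.67, 1.23 and 2.51 RPKM (2.04 ± 0.30, adjusted p = 3.41e-08) and Gm13021 at 6.57, 5.09 and 9.25 RPKM against 0.811, 1.54 and 3.33 RPKM in C0 (1.89 ± 0.37, adjusted p = 1.66e-05). Both transcripts reached their highest group mean at 72 h. Gm20419 was higher by 3.87 ± 0.30 in X36 and by 1.19 ± 0.38 in X1W, the latter with an adjusted p of 0.282 against C0 1 to 3 alone.

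One week after PH, D130020L05Rik was lower, at 0.80, 0.932 and 0.902 RPKM against 1.55, 2.17 and 2.48 RPKM in C0 (lowest, median and highest; -1.06 ± 0.19, adjusted p = 2.22e-05). Gm13657 was higher, at 1.17, 0.604 and 0.929 RPKM against 0.262, 0.361 and 0.505 RPKM (0.89 ± 0.21, adjusted p = 0.000857, and 0.47 with a pseudocount of 1). Gm15889 showed how the C0 livers divide: it was at 8.66, 6.83 and 6.52 RPKM in C0 4 to 6 and at 0.448 to 0.671 RPKM in the other C0 livers. Its falls in X48 (-1.96), X72 (-1.92) and X1W (-1.82) were -0.78, -0.74 and -0.64 against C0 1 to 3 alone, with adjusted p of 0.127, 0.221 and 0.363. Against C0 7 to 9 alone the falls in X72 and X1W were -0.96 and -0.86, with adjusted p of 0.0871 and 0.151. The fall in X48 kept its call there.

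In S48 against C0, 3 members were higher and 26 lower, beside 3.83% and 5.05% of all genes, and the counts were 3 and 8 with C0 1 to 3 and 5 and 51 with C0 7 to 9, beside 3.27% and 3.57%, and 12.2% and 12.1%, of all genes. 1810034E14Rik was at 1.49, 1.54 and 1.84 RPKM in S48 and at 2.58, 4.12 and 5.52 RPKM in C0 (-1.09 ± 0.22, adjusted p = 0.000191, and 0.0886 against C0 4 to 6 alone). Gm16639 was at 0.0878, 0.139 and 0.312 RPKM in S48 and at 0.328, 0.564 and 1.01 RPKM in C0 (-0.98 ± 0.22, adjusted p = 0.00102, and -0.44 with a pseudocount of 1). 1200007C13Rik was still at 0.201, 0.280 and 0.152 RPKM (0.74 ± 0.23, adjusted p = 0.0194), a call that was lost in 8 alternatives, among them the fits without any one S48 liver.

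The unoperated livers were compared between ZT6 (C4) and ZT2 (C0). Here 32 members were higher and 1 lower, beside 5.81% and 2.08% of all genes, but the count rested on the C0 livers used. With C0 1 to 3 it was 58 and 5, with C0 4 to 6 it was 32 and 5, and with C0 7 to 9 it was 2 and 0. Of all genes, 10.8% and 6.03%, 11% and 7.1%, and 0.95% and 0.169% were higher and lower in the same order. The C4 livers and 3 of the C0 livers came from one experimental period, but the labels do not say which replicates those were, so clock time and period cannot be told apart. 2900052L18Rik, 1.36 kb from Bahcc1, was at 2.71, 2.40 and 2.28 RPKM in C4 (1.55 ± 0.22, adjusted p = 1.51e-06). In C0 it was at 0.428 to 0.591 RPKM in livers 1 to 6 and at 0.711 to 1.67 RPKM in livers 7 to 9. 2410004N09Rik (Epb41l4aos in RefSeq) was at 28.6, 17.7 and 18.6 RPKM in C4 (1.18 ± 0.22, adjusted p = 0.000208, and 0.161 against C0 7 to 9 alone). Gm4673 was at 1.35, 1.20 and 1.17 RPKM in C4 (1.11 ± 0.28, adjusted p = 0.00482, and 0.415 against C0 7 to 9 alone).

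**Figure D4:**
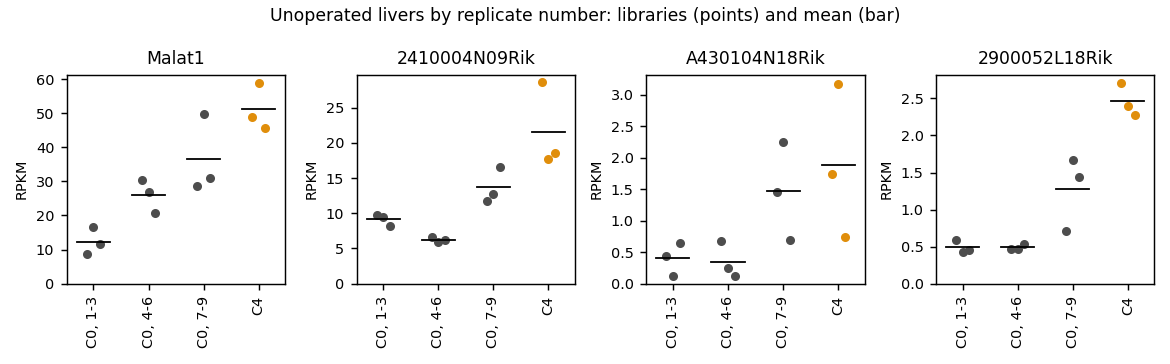
RPKM of 4 lincRNAs in the unoperated livers (points) with the mean (bar), for C0 replicates 1 to 3, 4 to 6 and 7 to 9 and for C4. For Malat1 and 2900052L18Rik the means of C0 7 to 9 lie between those of the other C0 livers and C4, whose 2900052L18Rik levels were 2.28 to 2.71 RPKM.

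Malat1, Tug1 and 1700020I14Rik came from a list named for nuclear body and chromatin transcripts. Their place in the cell was not measured. Malat1, an abundant RNA of nuclear speckles, was at 48.9, 58.8 and 45.5 RPKM in C4 and at 8.79, 26.9 and 49.8 RPKM (lowest, median and highest) in C0, where replicates 1 to 3 were at 8.79, 16.5 and 11.7 RPKM. It fell against C4 to 31.2, 18.8 and 18 RPKM in X4 (-1.20, adjusted p = 0.00666) and to 11.1, 7.64, 11, 17.5 and 19.3 RPKM in S4 (-1.99, adjusted p = 1.77e-06). In X36 against C0 its difference was -0.08 ± 0.25 (adjusted p = 0.815), but it was 0.80 (adjusted p = 0.0210) against C0 1 to 3 alone and -0.75 (adjusted p = 0.0252) against C0 7 to 9 alone. Tug1, which has been tied to chromatin regulation, was at 3.67 to 3.88 RPKM in S48 and at 4.98 to 6.37 RPKM in X48, a log2 difference of 0.48, below the limit of 0.5 (0.53 without replicate 3). 1700020I14Rik (Oip5os1 in RefSeq, also known as Cyrano) was at 6.14, 6.72 and 6.85 RPKM in C4 and at 3.53 to 5.61 RPKM in S4 (-0.61, adjusted p = 5.19e-05). Neat1 and Miat of the same list were measured but are not members.

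Hosts of snoRNAs numbered 14 by overlap with snoRNA genes in GENCODE. In X10 against S10, 4 rose and none fell (median log2 difference 0.40), or 28.6% beside 3.4% of all genes, and with replicates 1 to 3 of X10 alone 1 rose. In X36 against C0, 7 rose (50%, beside 25.7% of all genes) and 2 fell, and after scaling to one median 3 rose and 5 fell. In C4 against C0, 8 rose (57.1%, beside 5.81%) and none fell, but against C0 7 to 9 alone 1 rose. Against C4, 6 fell in X4 (42.9%, beside 33.9%) and 7 in S4 (50%, beside 31%), while 3 and 2 rose. Of all members, 7.19% rose in X10 against S10, 15.0% in X36 against C0 and 20.9% in C4 against C0. The shares of all members that fell against C4 were 58.8% in X4 and 61.4% in S4. Snhg1, annotated as 1 exon block over 8 snoRNA genes, was at 1.25, 1.11 and 1.03 RPKM in S10 and at 1.82, 2.47 and 3.16 RPKM (lowest, median and highest) in X10 (0.94, adjusted p = 0.000137). Snhg5 was at 3.63 to 5.96 RPKM in S4 and at 7.58, 7.52 and 9.94 RPKM in X4 (0.79, adjusted p = 0.00364, and 0.0642 without replicate 6), and at 1.94, 2.02 and 1.70 RPKM in S10 and 2.12, 4.05 and 4.38 RPKM in X10 (0.83, adjusted p = 0.00238). For both transcripts the operated groups named did not overlap, and PH gave the higher level. Snhg12, in contrast, fell from 4.64, 4.36 and 3.75 RPKM in C4 to 2.27, 2.02 and 2.73 RPKM in X4 and to 2.06 to 2.60 RPKM in S4. Gm11974 (Snhg15 in RefSeq) was at 0.201, 0.642 and 0.789 RPKM (lowest, median and highest) in C0 and at 1.73, 2.16 and 3.18 RPKM in X36 (1.62 ± 0.18, adjusted p = 6.87e-12), and it rose in X4 against C4 (0.94) and in X10 against S10 (0.76), the latter a call that was lost in 8 alternatives, with an adjusted p of 0.267 without replicate 1.

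9430037G07Rik and 9330159M07Rik lie near Snhg5 on chromosome 9, and like it each holds a gene of the Snord50 family. In X48 they were at 3.24, 1.91, 4.39, 4.76 and 7.08 RPKM and at 1.22, 0.899, 1.46, 1.69 and 2.17 RPKM. In S48 they were at 0.790, 0.310 and 0.521 RPKM and at 0.273, 0.196 and 0.374 RPKM. The log2 differences were 2.45 ± 0.36 (adjusted p = 6.70e-08) and 1.68 ± 0.21 (adjusted p = 4.81e-10), and the contrast of 48 h with 10 h was 2.07 ± 0.50 (adjusted p = 0.00114) for 9430037G07Rik. Of the 32-base stretches of their exons, 7.11% and 8.97% are shared between these rows, and 68.8% and 69% also occur on chromosome 9 outside annotated exons, so part of their reads may come from other copies. The contrast of 48 h with 10 h was 1.53 ± 0.29 for 9330159M07Rik (adjusted p = 2.94e-05).

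Of the 23 snoRNA host symbols listed, 12 were in the table under that symbol and 6 were members. In X10 against S10, 3 of these 6 rose and none fell, beside 3.4% and 3.62% of all genes. In X4 against C4, 1 rose and 3 fell, beside 11.7% and 33.9%, and in X48 against C0 none rose and 3 fell, beside 30.4% and 7.66%. With 6 members these counts are read against the shares of all genes given above for each comparison, and nothing is drawn from them. Other listed snoRNA hosts were members under older symbols: Snhg15 as Gm11974, Snhg17 as 9430008C03Rik, Snhg18 as 0610007N19Rik, Snhg20 as 2810008D09Rik and Epb41l4aos as 2410004N09Rik. They were counted among the hosts by overlap and not in the 6. Of the 12 miRNA host symbols, 3 were in the table and Mir17hg was a member. Of the 9 symbols in the nuclear body and chromatin list, 5 were in the table under that symbol and 3 were members. Firre was a further member as 6720401G13Rik. No member came from the 8 imprinted or the 3 p53 and Myc neighbourhood symbols, of which 5 and 2 were in the table.

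In all, 6 members overlap miRNA genes in GENCODE, and 4 of these have mature sequences in RefSeq (GRCm38.p6). The sequences are shown to name the miRNAs that these precursors carry. Capitals mark the seed, bases 2 to 8, which pairs with target messages, and members of one family share it.
mmu-miR-17-5p (Mir17hg): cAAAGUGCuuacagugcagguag
mmu-miR-20a-5p (Mir17hg): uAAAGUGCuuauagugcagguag
mmu-miR-18a-5p (Mir17hg): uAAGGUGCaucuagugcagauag
mmu-miR-19a-3p (Mir17hg): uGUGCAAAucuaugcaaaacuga
mmu-miR-19b-3p (Mir17hg): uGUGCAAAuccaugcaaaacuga
mmu-miR-92a-3p (Mir17hg): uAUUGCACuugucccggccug
mmu-miR-29b-3p (A330023F24Rik): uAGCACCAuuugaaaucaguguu
mmu-miR-29c-3p (A330023F24Rik): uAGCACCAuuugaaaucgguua
mmu-miR-101a-3p (E130102H24Rik): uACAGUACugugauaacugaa
mmu-miR-142a-3p (A430104N18Rik): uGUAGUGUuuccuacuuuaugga

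Mature miRNAs were not measured, since they carry no poly(A) tail, and the values below are those of the host transcripts. Mir17hg carries the miR-17 to miR-92a cluster, known from growing cells. It was at 0.361, 0.311 and 0.339 RPKM in S48 and at 0.702, 0.708, 1.02, 1.40 and 1.13 RPKM in X48 (1.05, adjusted p = 0.000762), with no overlap. Against C0, at 0.279, 0.711 and 1.15 RPKM (lowest, median and highest), X48 did not pass the limit (0.48), but the difference was 1.15 against C0 1 to 3 alone (adjusted p = 3.03e-05) and -0.01 against C0 7 to 9 alone. In the 14 comparisons with all libraries it was the only host of a miRNA with a rise that passed.

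A330023F24Rik, the host of miR-29b and miR-29c, was at 0.0703, 0.144 and 0.239 RPKM (lowest, median and highest) in X36 and at 0.121 to 0.204 RPKM in X48. The C0 livers spanned 0.189 to 1.04 RPKM, and their replicates 1 to 3 were at 0.226, 0.314 and 0.189 RPKM. The fall was -1.13 (adjusted p = 4.45e-07) in X36 and -1.12 (adjusted p = 1.89e-06) in X48. E130102H24Rik, the host of miR-101a, was at 0.528, 1.08 and 0.665 RPKM in C0 1 to 3 and at 2.52 to 4.22 RPKM in C0 4 to 9, and X36 livers were at 0.787, 1.00 and 2.31 RPKM (-0.64, adjusted p = 0.0390). For both hosts the C0 livers of replicates 1 to 3 overlapped the X36 livers and the others did not. Against C0 1 to 3 alone A330023F24Rik differed by -0.29 in X36 (adjusted p = 0.256) and -0.27 in X48 (adjusted p = 0.299), and E130102H24Rik was higher in X36 by 0.59 (adjusted p = 0.0973), so both falls rest on C0 4 to 9. A430104N18Rik, the host of miR-142, a miRNA of blood cells, was at 1.74, 3.17 and 0.737 RPKM in C4 and at 0, 0.131 and 0.246 RPKM in X4 (-2.38, adjusted p = 0.000261). Beside it, the B cell marker sum was 2.46 to 4.39 RPKM in C4 and 0.155 to 0.302 RPKM in X4. The Kupffer cell and macrophage marker sum was 26.5 to 34.3 RPKM in C4 and 9.93 to 12.5 RPKM in X4. The neutrophil marker sum did not fall, with 1.02 to 4.66 RPKM in C4 and 4.36 to 9.25 RPKM in X4. The part of cell numbers was not tested. Of the 6 hosts, 5 fell in S4 and 4 in X4 against C4, beside 31% and 33.9% of all genes and 61.4% and 58.8% of all members. Against C0, 5 fell in X36 and 4 in X48, beside 9.29% and 7.66% of all genes and 29.4% and 34.0% of all members. However, against C0 1 to 3 alone 2 hosts fell and 1 rose in each.

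**Figure D5:**
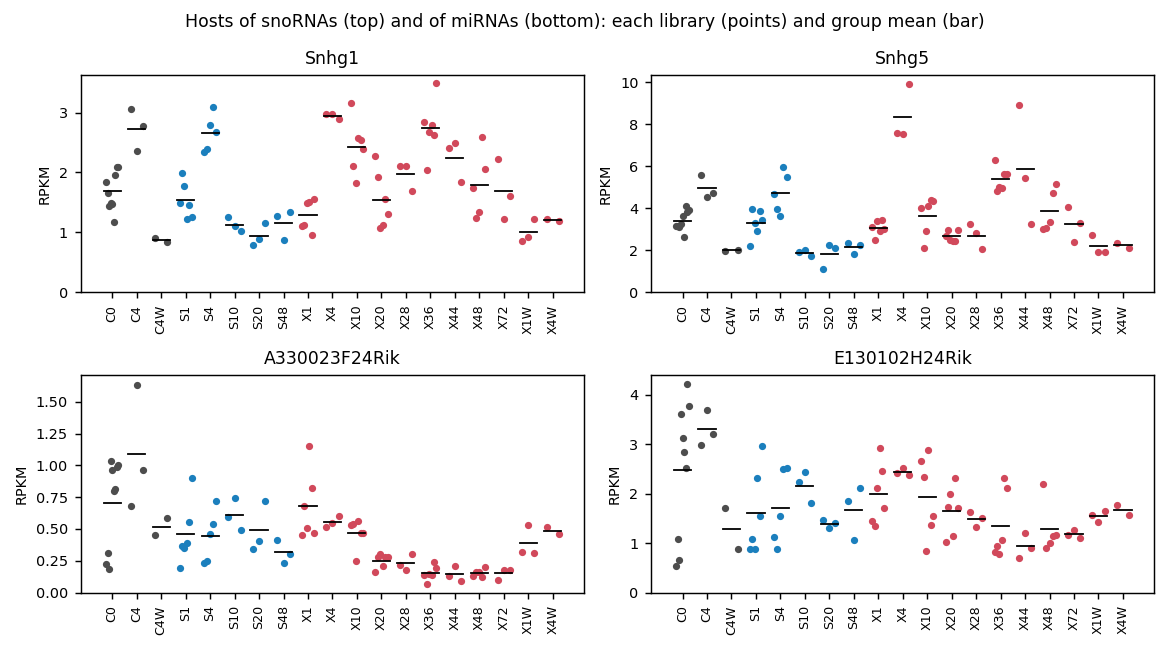
RPKM of the snoRNA hosts Snhg1 and Snhg5 and of the miRNA hosts A330023F24Rik and E130102H24Rik in every library (points; grey unoperated, blue sham, red PH) and the group mean (bar). Snhg5 peaks in X4 (7.58, 7.52 and 9.94 RPKM), A330023F24Rik stays at or below 0.239 RPKM from X36 to X72, and both miRNA hosts split into a low and a high set within C0.

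Some rows typed lincRNA are protein-coding genes in RefSeq. This held for 13 members, against 113 listed as lncRNA, 3 as transcribed pseudogenes and 24 without a match. Among them are 1500011K16Rik, which encodes the mitochondrial microprotein mitoregulin (Mtln), and 2900053A13Rik, which encodes the cytochrome c oxidase chaperone Pet100. Mtln fell in X4 against C4 (-0.68, adjusted p = 0.000736), from 8.78, 5.55 and 9.11 RPKM to 5.24, 5.33 and 3.64 RPKM, and Pet100 fell from 12.5, 14.3 and 10.9 RPKM to 7.02, 6.92 and 5.05 RPKM (-0.97, adjusted p = 8.00e-05). 1190007F08Rik (Smim1, a small membrane protein of red cells) was at 0.756, 0.646 and 1.22 RPKM in C4 and at 0.189, 0.195 and 0.124 RPKM in X4. In that comparison 2 of the 13 rose and 4 fell, beside 11.7% and 33.9% of all genes. Bbip1, a subunit of the BBSome of the primary cilium, was at 3.10, 2.85 and 3.07 RPKM in S48 and at 4.84, 4.95, 5.60, 5.55 and 6.22 RPKM in X48 (0.80, adjusted p = 3.62e-10, and 0.33 after scaling to one median). BC029722 was at 6.49, 6.92 and 7.06 RPKM in S48 and at 13.2, 8.92, 12.8, 9.86 and 11.7 RPKM in X48 (0.69, adjusted p = 0.000289, and 0.21 after scaling). 1810058I24Rik moved in both directions, from 16.8, 17.5 and 15.4 RPKM in S10 to 7.71, 9.38 and 11.5 RPKM (lowest, median and highest) in X10 (-0.80) and from 9.89, 12.0 and 19.4 RPKM in C0 to 19.8, 22.4 and 26.4 RPKM in X36 (0.79, and 0.42 after scaling or 0.49 against C0 1 to 3 alone, both short of the limit).

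By position, 56 members overlapped a protein-coding gene on the opposite strand, 5 overlapped one on the same strand, 54 lay within 5 kb of the nearest coding gene, 30 between 5 and 50 kb and 8 farther away. In X4 against C4, 33 of the 56 members on the opposite strand fell and 5 rose, that is 58.9% fell beside 58.8% of all members and 33.9% of all genes. The 25 members that start within 1 kb of a coding gene and run away from it gave 21 falls and 2 rises (84% fell), and in S4 against C4 19 falls and 1 rise (76% fell, beside 61.4% of all members and 31% of all genes). The counting was strand-specific, so reads of a pair can be told apart as far as the library kit keeps strand.

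Over the 19 group means, Pearson's r between a member and its nearest coding gene ranged from -0.795 to 0.912 with a median of 0.247 over 149 pairs. These are descriptions over groups that share libraries' preparation, clock times and controls. The median was 0.255 over the 53 pairs that overlap on opposite strands (antisense pairs), of which 3 were below -0.5. Over the 25 divergent pairs it was 0.325, with a highest value of 0.897. The 2 highest values of all belonged to antisense pairs, 1810034E14Rik with Cdc14b (0.912) and 0610005C13Rik with Bcat2 (0.908). Among antisense pairs these were followed by 1810014B01Rik with Hsp90b1 (0.862), 1810019D21Rik with Esrp2 (0.843) and Gm2061 with Slc30a10 (0.839). For the first pair, Cdc14b was at group means of 4.06 RPKM in C4, 0.985 RPKM in S4 and 1.33 RPKM in X4, and for the second, Bcat2 was at 5.30, 1.89 and 0.841 RPKM. For these first 2 pairs the group means of both partners were lower at 4 h than in C4. The lowest r was that of Gm4673 with Lsr (-0.795), and Lsr was at 79.9 RPKM in X72, where Gm4673 was at 0.0107, 0.0334 and 0.0494 RPKM. Gm15441 with Txnip had r = 0.326 and 1500017E21Rik with Hectd2 -0.633.

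For 107 members a RefSeq promoter (GRCm38.p6, 250 bases before to 50 after the start) could be searched on both strands. The E-box CACGTG, a site class bound by clock and Myc family proteins, was in 18 of them (16.8%) and in 7.24% of 27025 promoters. The cAMP response element TGACGTCA was in 6 (5.61%) against 1.88%, and the AP-1 site TGACTCA in 2 (1.87%) against 5.17%. A match of letters shows no binding, and these shares were not tested. Promoters of members called at 4 h are shown, with the matched motif in capitals. That of Gm11974 (Snhg15), which rose, holds an E-box and a cAMP response element that do not overlap, and it is printed with the E-box marked. The promoters of 1700080G11Rik, which fell in S4 and X4, and of B230354K17Rik, which was lower in X4 than in S4, hold 1 match each.
Gm11974 promoter, chr11:6528711-6529010, - strand, E-box: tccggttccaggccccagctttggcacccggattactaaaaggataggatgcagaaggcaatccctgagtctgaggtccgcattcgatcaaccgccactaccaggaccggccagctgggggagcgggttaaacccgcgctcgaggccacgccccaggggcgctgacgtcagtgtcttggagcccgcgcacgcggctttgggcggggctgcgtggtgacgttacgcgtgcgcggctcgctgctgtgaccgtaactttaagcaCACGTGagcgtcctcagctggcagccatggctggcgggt
1700080G11Rik promoter, chr4:127474591-127474890, + strand, E-box: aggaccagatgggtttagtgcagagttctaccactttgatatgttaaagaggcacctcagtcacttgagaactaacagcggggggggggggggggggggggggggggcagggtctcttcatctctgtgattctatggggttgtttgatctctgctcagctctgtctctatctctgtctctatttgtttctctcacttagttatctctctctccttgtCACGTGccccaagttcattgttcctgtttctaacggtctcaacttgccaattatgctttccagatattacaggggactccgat
B230354K17Rik promoter, chr17:45433581-45433880, + strand, cAMP response element: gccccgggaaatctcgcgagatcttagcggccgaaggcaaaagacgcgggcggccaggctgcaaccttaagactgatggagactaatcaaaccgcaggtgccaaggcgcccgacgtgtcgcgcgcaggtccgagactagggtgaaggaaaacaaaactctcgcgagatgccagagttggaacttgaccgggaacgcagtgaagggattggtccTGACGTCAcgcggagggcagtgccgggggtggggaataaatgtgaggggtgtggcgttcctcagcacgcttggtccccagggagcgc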

How the data were processed

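Livers of 80 mice in 19 groups were analysed from RNA-seq of poly(A)-selected, strand-specific single-end libraries. The deposited values are log2 RPKM per gene: the authors trimmed reads, aligned them to mm9 with TopHat 2.0.13 and Bowtie2 (SAMtools 0.1.19), counted them by strand over Ensembl exons with featureCounts, and gave a read with n alignments a weight of 1/n. No spike-in was used, so values are relative to each library's total. Of 84 columns, 4 that match no labelled sample were not used, and 7 labelled samples without a column, X60 among them, were not analysed here.

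The log2 values were turned back into RPKM, and log2(RPKM + 0.25) was fitted in limma 3.58.1 (R 4.3.3; trend, two-sided) with 1 coefficient per group over all 80 libraries. Genes above -1.5 log2 RPKM in at least 1 library (15396, all 153 members among them) were tested and p-values were adjusted by Benjamini-Hochberg over all of them. A call needed an adjusted p below 0.05 and a log2 difference beyond 0.5. The pseudocount understates changes of low transcripts. The paper tested counts, which were not used here. Replicates were separate livers. Same-numbered livers did not deviate together (correlations of deviations from -0.186 to 0.296), so no pairing was used. Tests were checked on simulated data.

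Members and lists were chosen with earlier results of these data known. Members named were, per comparison, up to 3 called rises and 3 called falls with the largest change and no overlap between the groups, the 10 of highest mean level, those in the lists, those with a protein in RefSeq and those at the limit. Others were named after their values were seen, as hosts of small RNAs or by their neighbour. Positions and neighbours came from GENCODE vM1 (mm9), sequences from RefSeq. Figures were drawn with matplotlib 3.10.9. Alternatives were another pseudocount, no filter, scaling to one median, a replicate block, triplicates as a term, leaving out each replicate and, chosen after seeing the data, parts of groups and C0 in place of C4.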

Additional observations from a re-analysis of the deposited data

Results flagged for a closer look

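For 36 members, each checked in 8 groups of 4 to 10 livers (288 checks), 23 values lay farther from the rest of their group than Dixon's limit allows, and chance alone gives about 1 check in 20, or 14 here. Some livers gave several of these values. X36 replicate 2 had the highest level of Gm15889 (3.15 RPKM), Gm13056 (3.50), Gm13021 (5.20) and 1700080G11Rik (2.91). X1 replicate 4 had that of Gm20419 (16.8 RPKM), Gm2788 (16.4), 9430037G07Rik (3.46), 1200007C13Rik (0.510) and 1810019D21Rik (5.96). C0 replicate 2 was highest for Gm20419 (9.04 RPKM) and Gm12840 (101.9), and X10 replicate 2 for Gm15611 (32.1) and Gm13056 (0.557). Single high livers in X10 were replicate 1 for Gm12840 (682.6 RPKM), replicate 3 for Gm12718 (0.189) and replicate 4 for 1600020E01Rik (1.71). X1 replicate 6 was high for 1810014B01Rik (1.05 RPKM), X20 replicate 5 for 9430037G07Rik (2.09), X48 replicate 3 for 1500017E21Rik (5.87), X48 replicate 4 for Gm13056 (1.46), S1 replicate 3 for 2310001H17Rik (2.56) and S4 replicate 5 for Gm13657 (0.208). S1 replicate 6 was low for Gm16731 (0.165 RPKM).

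The difference between PH and sham at 48 h minus that at 10 h passed the test for 27 members, of which 6 met the rule for naming in this contrast. On the log2 scale these were 4732419C18Rik (-1.58), Gm12840 (-1.40), Gm4673 (-2.17), Gm13021 (1.82), A530020G20Rik (1.81) and 9430037G07Rik (2.07). For Gm4673 the X10 livers were all above the S10 livers and the X48 livers all below the S48 livers. For Gm12840 and 9430037G07Rik the exon sequence is shared with other places in the genome, and the source of their reads is uncertain.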

How the results depend on the processing

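Differences that changed sign were those of Malat1 in X36 against C0 (0.26 with the replicate block and with consecutive triplicates as a term, 0.80 with C0 1 to 3 alone, 0.092 with replicates 4 to 6 alone in groups of 6, and -0.24 to 0.066 when one replicate was left out), of E130102H24Rik in X36 against C0 (0.59 with C0 1 to 3 alone) and of Mir17hg in X48 against C0 (-0.014 with C0 7 to 9 alone). The balance of rises and falls turned in X20 and X48 against sham and in the contrast of 48 h with 10 h after scaling to one median. It also turned in X36, X72 and X1W with C0 1 to 3 alone. These counts are given above. With replicates 4 to 6 alone in groups of 6, X10 against S10 gave 12 higher and 10 lower, beside 3.25% and 2.83% of all genes. In the same setting X1 against S1 gave 0 higher and 1 lower, beside 0.432% and 0.74%. Of the counts of members called, 162 alternatives stayed within 1.5 times and 43 did not. Over all alternatives of the differences named, 1320 kept their side of the threshold, 86 lost the call, 9 gained one and 7 changed sign. A pseudocount of 1 lowered the counts to 10 (X4 against S4), 13 (X10 against S10), 9 (X20 against S20), 20 (X48 against S48), 45 (X36 against C0), 41 (X48 against C0), 40 (X72 against C0), 9 (X1W against C0), 14 (S48 against C0) and 20 (C4 against C0), and the cause was not tested. With the replicate block they were 2 (X1 against S1), 23 (X20 against S20), 11 (S48 against C0) and 62 (C4 against C0), and consecutive triplicates as a term gave 24, 11 and 62 for the last 3; same-numbered livers share only a number, and at most 2 livers of a comparison correlated best with their own number. Of the alternatives chosen after seeing the data, replicates 1 to 3 alone gave 5 in X1 against S1, C0 7 to 9 alone gave 55 (X1W), 56 (S48) and 2 (C4), and C0 1 to 3 alone gave 11 (S48) and 63 (C4).

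Leaving out one replicate number at a time gave 0 to 1 members for X1 against S1, 10 to 16 for X4 against S4, 14 to 30 for X10 against S10, 4 to 15 for X20 against S20, 22 to 30 for X48 against S48, 98 to 107 for X4 against C4, 92 to 102 for S4 against C4, 63 to 71 for X36, 65 to 73 for X48, 48 to 68 for X72, 11 to 27 for X1W, 15 to 30 for S48 and 7 to 42 for C4 against C0, and 14 to 28 for the contrast of 48 h with 10 h. The lowest counts came without replicate 1 in X10, X20 and X48 against sham and in the contrast, without replicate 6 in X4 against S4, without replicate 3 in X1W and without replicate 2 in S48 and C4 against C0. Summed member levels in X28 were 761 RPKM with and 734 RPKM without replicate 2. Values near 0 rest on few reads, so differences among transcripts under the limit of detection were not resolved at this depth, and counting error of single values cannot be given from RPKM alone.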
